A study of Mus musculus with 6 samples.

Results

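Regulatory T cells (Tregs) restrain other lymphocytes partly through molecules that they secrete or display, and the RNA of 10 of these was followed here in spleen Tregs with and without the zinc finger transcription factor Zfp335. The 10 genes, taken by symbol from a table of 32285 rows, were the cytokines Il10, Tgfb1, Ebi3 and Il12a, the cell surface enzymes Entpd1 and Nt5e, and the mediators Gzmb, Fgl2, Areg and Lrrc32. All 10 had a row and all 10 passed the filter on low counts. The 3 control libraries (WT) and the 3 Zfp335-deficient libraries (KO) came from CD4+CD25+ cells sorted from spleens of mice on the C57BL/6 strain. KO mice carried ERCre and a floxed Zfp335 gene (ERCre Zfp335fl/fl). The labels call the WT animals wild-type littermates, whereas the study's methods describe ERCre mice that were given tamoxifen like the KO mice. By those methods, mice of both genotypes were 6 weeks old at the first of 3 tamoxifen injections and were sacrificed on day 7. Cre is fused to a mutant estrogen receptor and enters the nucleus when a tamoxifen metabolite binds it. The promoter that drives this fusion is not named in the sources used here, so other cell types may have lost Zfp335 too. Nor is it stated whether a library came from 1 mouse or from a pool, so p-values measure only the spread between these libraries.

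Tregs are known to act by several routes. IL-10, TGF-β and IL-35 (a dimer of the Ebi3 and Il12a products) dampen the activation of T cells and antigen-presenting cells. GARP, the product of Lrrc32, tethers latent TGF-β at the Treg surface until it is released. CD39 (Entpd1) and CD73 (Nt5e) act in sequence to turn extracellular ATP into adenosine. Granzyme B can kill target cells, the fibrinogen-like protein Fgl2 binds inhibitory Fc receptors, and amphiregulin (Areg), an epidermal growth factor receptor (EGFR) ligand, is known for tissue repair.

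Library totals were between 133283969 and 209041812 counts. The targeted gene fell as labelled, since Zfp335 averaged 120.1 ± 4.67 CPM in WT against 14.8 ± 0.451 CPM in KO (SD, n = 3). CPM is the count of a gene scaled to a library of 1000000 counts, after TMM adjustment of library sizes. Foxp3, the factor that defines Tregs, was between 1119.5 and 1154 CPM in WT and between 1046 and 1062 CPM in KO. Of 40 marker genes of other cells in the spleen and blood, 35 were tested. Of these, 23 were lower (12.1% of all genes tested) and 2 were higher (12.0%) in KO. The 6 B cell markers summed to between 46.8 and 51.4 CPM in WT and between 21.5 and 23.6 CPM in KO, and all 6 fell. The 7 myeloid markers summed to between 40.1 and 44.5 CPM in WT and between 25.8 and 27.0 CPM in KO. The sums for neutrophils (6 genes) and red cells (4 genes) were between 17.5 and 40.2 CPM in WT and between 0.878 and 2.18 CPM in KO. Xist, which marks the inactive X chromosome, was at most 0.424 CPM in the WT libraries and at least 124 CPM in the KO libraries. Xist thus split the libraries in the same way as genotype. Effects of genotype and of sex, as read from Xist, therefore cannot be told apart in these libraries. The part of other cells and of sex in the results was not tested. In bulk libraries, fewer cells of a type and less RNA per cell cannot be told apart.

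**Figure D1:**
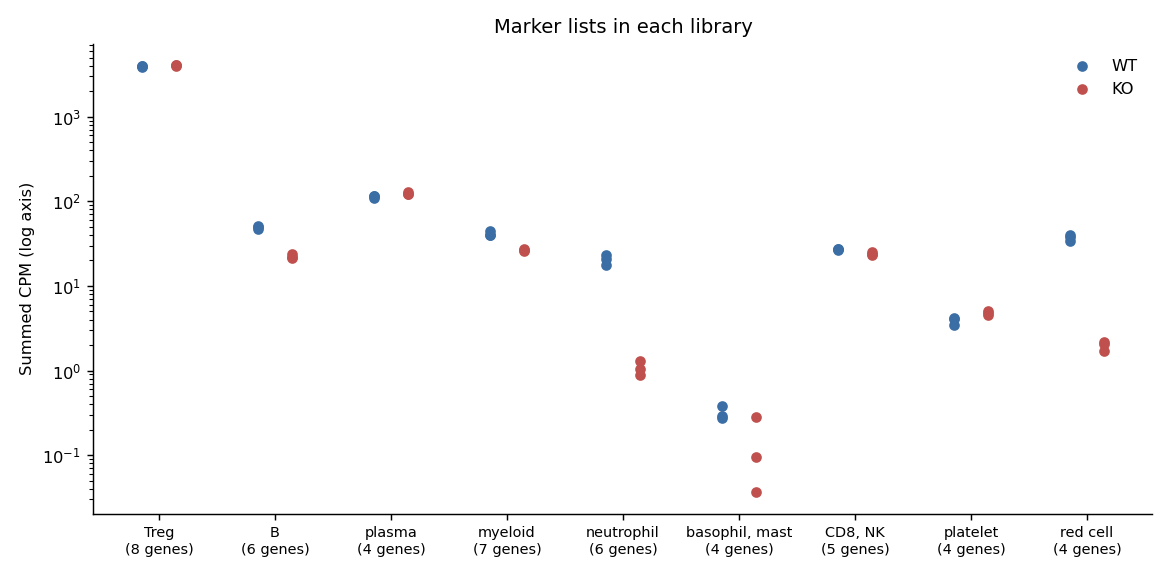
Summed CPM (log axis) of each list of marker genes in the 3 WT (blue) and 3 KO (red) libraries, 1 point a library. The Treg list of 8 genes was between 3899 and 4041 CPM in all 6 libraries, a sum in which Ctla4 and Tnfrsf18 rose while Foxp3, Il2ra and Cd3g fell. The B cell, myeloid, neutrophil, red cell, and CD8 and NK cell lists were lower in each KO library than in each WT library. In the CD8 and NK cell list only 1 gene, Eomes, was called lower. The plasma cell and platelet lists were higher in each KO library. In the plasma cell list 1 gene rose and 2 fell, and in the platelet list only 1 gene was tested.

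The suppressor molecules moved in both directions. Il10 RNA was 1.90-fold and Areg RNA 1.79-fold higher in KO, and Lrrc32 RNA was 1.32-fold higher. Fgl2 RNA fell by 34.1%, Gzmb RNA fell by 32.6% and Nt5e RNA fell by 6.73%. Il12a was close to the detection limit and was lower. Tgfb1, Entpd1 and Ebi3 did not pass the test. At an adjusted p under 0.05 in edgeR's quasi-likelihood test, 3 of the 10 members were higher and 4 were lower in KO. Over all 17307 genes tested, 12.0% were higher and 12.1% were lower. The median log2 fold change of the 10 members was -0.017, and that of all genes tested was -0.0042. The study's methods ask for a 1.5-fold change, with p under 0.05 and an adjusted p under 0.1. They state this for Tregs of Foxp3Cre mice, with p-values from DESeq2. Here the cutoffs were applied to edgeR's p-values, and with DESeq2 3 members passed. By these cutoffs 4 members were called, against 6.95% of all genes, with Il10 and Areg higher (2.58% of all genes) and Fgl2 and Il12a lower (4.37% of all genes). For 7 members the KO libraries did not overlap the WT libraries, against 38.3% of all genes. For 3 of these every KO library was above WT (19.3% of all genes) and for 4 below it (19.1%). Il12a passed the filter on low counts only through its WT libraries, which fixed its direction. Without it, 9 members remain, of which 3 were higher, 3 were lower, 3 passed the 1.5-fold cutoffs and 6 did not overlap, with a median log2 fold change of 0.0079. An exact permutation test of 3 against 3 libraries cannot give a two-sided p below 0.1. The 4 lower calls became 2, those of Gzmb and Fgl2, on leaving out any 1 of WT replicates 2 and 3 and KO replicates 1 and 3.

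**Figure D2:**
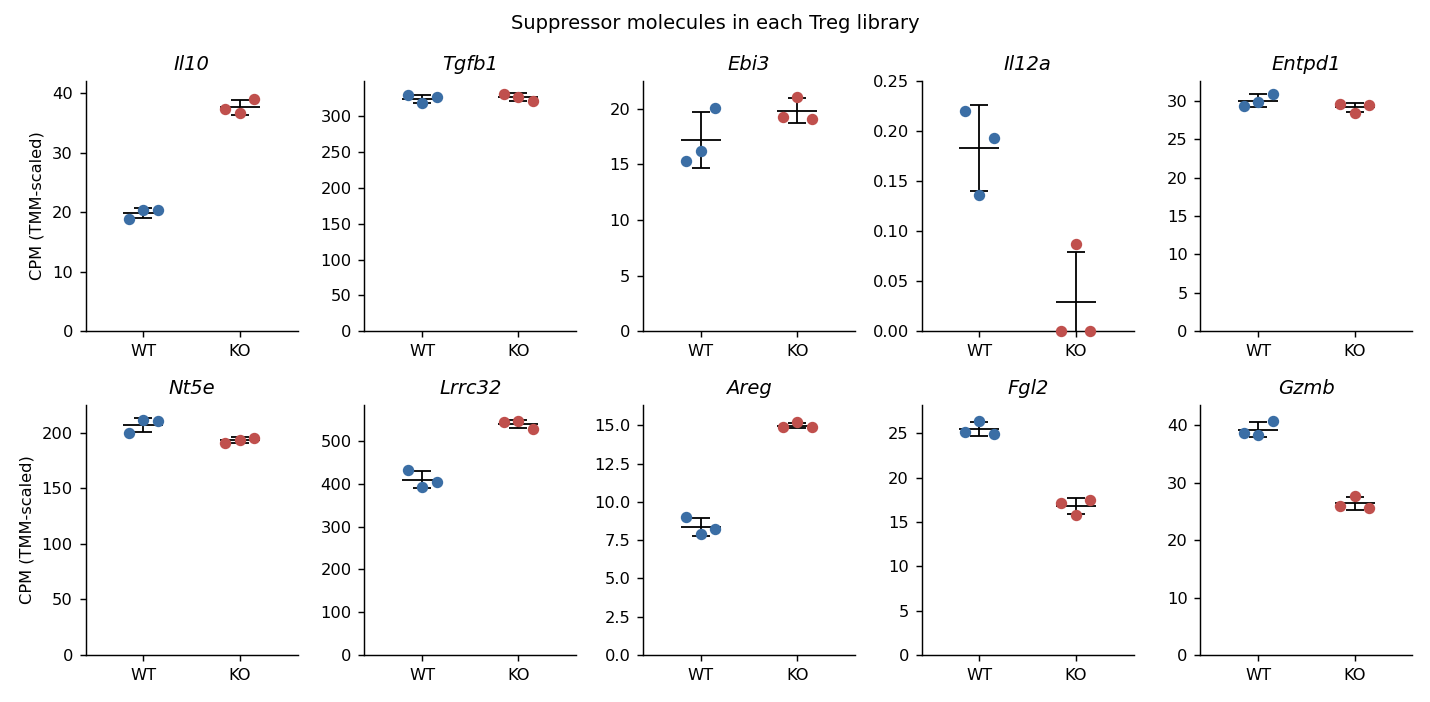
CPM of each suppressor molecule (vertical axes start at 0) in the 3 WT (blue) and 3 KO (red) libraries, 1 point a library, with the mean and SD in black. Il10, Areg and Lrrc32 were higher and Fgl2 and Gzmb lower in every KO library, while Tgfb1 and Entpd1 overlapped between the groups.

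**Figure D3:**
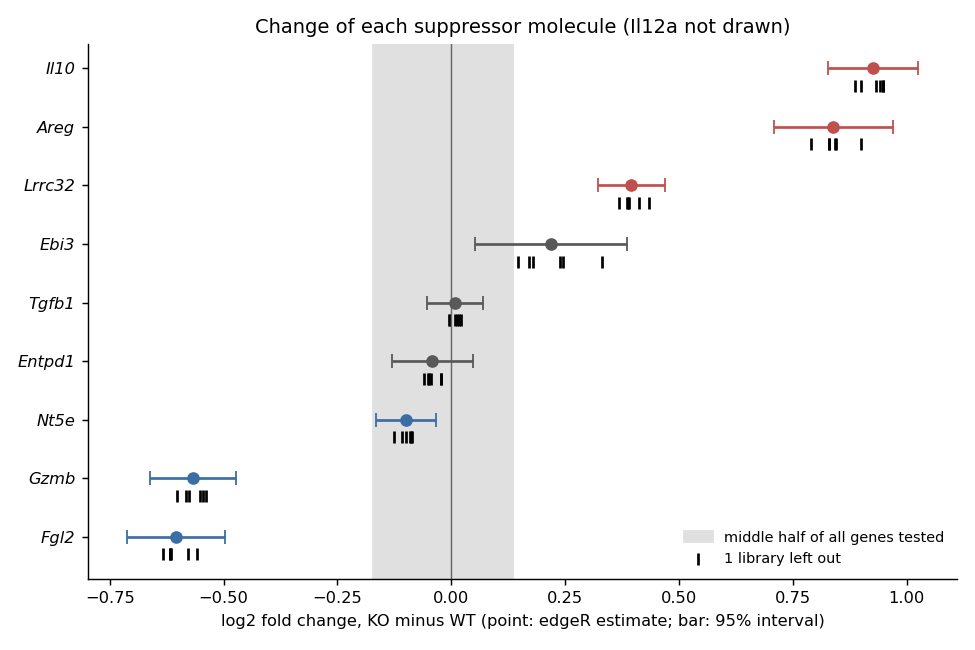
Log2 fold change (KO minus WT) of 9 members with its 95% interval, colored red where higher, blue where lower and grey where not called, over the middle 50% of all genes tested (grey band). Black ticks mark the 6 fits with 1 library left out each. The ticks of Il10, Areg, Lrrc32, Gzmb and Fgl2 stayed outside the band, as did those of Ebi3, which was not called.

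Il10 encodes the cytokine that limits antigen presentation and inflammatory cytokine release, and it lies on chromosome 1 of GRCm38 from 131019845 to 131024974 on the plus strand. It was 18.9, 20.4 and 20.3 CPM in WT replicates 1, 2 and 3 and 37.3, 36.7 and 39.1 CPM in KO replicates 1, 2 and 3. Every KO library was above every WT library, and the replicates varied little, with a coefficient of variation of 4.33% in WT and 3.29% in KO. The log2 fold change, by edgeR, was 0.93 with a standard error of 0.050 (adjusted p = 3e-08). The direction and the call held under each of 17 other settings, with log2 fold changes from 0.89 to 0.95. B cells and myeloid cells also make IL-10, and their part in the level of Il10 was not tested. Of all genes tested, 92.2% changed less than Il10 in absolute log2 fold change.

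Genes that sense or control IL-10 moved in both directions. Of 6 genes of the IL-10 receptor and its signal, 2 were higher (12.0% of all genes) and 2 were lower (12.1%) in KO. Il10ra, the chain that binds IL-10, fell from 94.5, 99.2 and 97.9 CPM to 74.1, 72.3 and 71.9 CPM, a log2 fold change of -0.42 (edgeR adjusted p = 2.26e-06). Il10rb, the chain shared with other receptors, fell by 8.21% (log2 fold change -0.12, edgeR adjusted p = 0.029), and lost its call without WT replicate 2 and without each KO replicate (adjusted p up to 0.112). Socs3, a feedback inhibitor that STAT3 induces, was 1.24-fold higher (edgeR adjusted p = 2.4e-05). Stat3 itself had a log2 fold change of 0.096 (edgeR adjusted p = 0.0388), which did not pass without WT replicate 2, without any 1 KO replicate (adjusted p up to 0.159), with upper-quartile factors (0.0912) or with library size only (0.147).

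Of 10 transcription factors and related regulators linked to Il10, 5 were higher (12.0% of all genes) and 1 was lower (12.1%) in KO. Bhlhe40, a repressor of Il10 in T cells, was 204.6, 205.2 and 213.5 CPM in WT and 507.6, 510.5 and 507.8 CPM in KO. This was a 2.45-fold increase, or 1.29 on the log2 scale (edgeR adjusted p = 3.03e-11). The repressor and Il10 were both higher. Nfil3, which promotes IL-10 production, was 1.80-fold higher (edgeR adjusted p = 2.75e-09), Ahr 1.34-fold higher (edgeR adjusted p = 4.17e-05) and Irf4 1.18-fold higher (edgeR adjusted p = 0.000288). Maf, a direct activator of Il10, was lower, at 239.3, 245.7 and 251.4 CPM in WT and 202.4, 210.9 and 219.4 CPM in KO (log2 fold change -0.22, edgeR adjusted p = 0.000807). Prdm1, which encodes Blimp-1 and is linked to IL-10 in effector Tregs, averaged 36.5 ± 1.61 CPM in WT against 36.1 ± 0.344 CPM in KO (SD, n = 3, edgeR adjusted p = 0.896).

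Tgfb1, the main TGF-β gene of lymphocytes, lies on chromosome 7 of GRCm38 from 25687002 to 25705077 on the plus strand. It was 329, 318 and 327 CPM in WT replicates 1, 2 and 3 and 332, 327 and 321 CPM in KO replicates 1, 2 and 3. The groups overlapped, and the log2 fold change of 0.0079 had a 95% interval from -0.054 to 0.070 (edgeR adjusted p = 0.892). Its sign turned with the scaling of the libraries.

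Lrrc32, whose product GARP holds latent TGF-β1 on the Treg surface, lies on the same chromosome from 98489283 to 98502181 on the plus strand. It was 433, 394 and 404 CPM in WT and 544, 547 and 529 CPM in KO replicates 1, 2 and 3. Every KO library was above every WT library. The log2 fold change, by edgeR, was 0.40 with a standard error of 0.038 (adjusted p = 6.18e-06), and it ranged from 0.36 to 0.43 under 17 other settings. Within each library, the number of Lrrc32 counts per Tgfb1 count was between 1.24 and 1.31 in WT and between 1.64 and 1.67 in KO. This ratio does not depend on the scaling between libraries (two-sided exact permutation test, p = 0.1, which is the smallest possible).

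Of 10 other genes that store or activate TGF-β, 2 were higher (12.0% of all genes) and 2 were lower (12.1%) in KO. Furin, the protease that cuts the TGF-β1 precursor, was 167, 156 and 158 CPM in WT and 199, 196 and 199 CPM in KO (log2 fold change 0.31, edgeR adjusted p = 2.96e-05). Itgav, the integrin chain that pairs with Itgb8 to free TGF-β from GARP, was 1.10-fold higher (edgeR adjusted p = 0.0217), and lost its call without WT replicate 2, without each KO replicate (adjusted p up to 0.0803) and with library size only (0.0674). Itgb8 averaged 27.2 ± 0.480 CPM in WT against 26.4 ± 0.844 CPM in KO (SD, n = 3, edgeR adjusted p = 0.563). Nrros, a relative of Lrrc32 that anchors TGF-β1 on myeloid cells, fell from 85.2 ± 2.28 CPM to 71.6 ± 1.19 CPM (SD, n = 3, edgeR adjusted p = 0.000246). Thbs1, a secreted activator of latent TGF-β, was weakly expressed, at 1.27 ± 0.206 CPM in WT against 0.659 ± 0.138 CPM in KO (SD, n = 3, edgeR adjusted p = 0.00588).

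Ebi3, the subunit shared by IL-35 and IL-27, lies on chromosome 17 of GRCm38 from 55952640 to 55957022 on the plus strand. It was 15.3, 16.2 and 20.1 CPM in WT replicates 1, 2 and 3 and 19.3, 21.1 and 19.1 CPM in KO replicates 1, 2 and 3. WT replicate 3 stood at the level of the KO libraries and above 2 of them. The log2 fold change, by edgeR, was 0.22 with a standard error of 0.085 (adjusted p = 0.0863), and without WT replicate 3 it was 0.33 and passed the test (edgeR adjusted p = 0.00194). Ebi3 overlaps the antisense gene Gm16712, and 15.9% of the 50-base stretches of its transcripts are shared, mainly with that gene. Whether counting used the strand is not given in the sources used here. Gm16712 was between 2.32 and 3.34 CPM in the 6 libraries.

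Il12a encodes p35, the other subunit of IL-35, and lies on chromosome 3 from 68690644 to 68698547 on the plus strand. Its counts were 40, 26 and 26 in WT replicates 1, 2 and 3 and 0, 18 and 0 in KO replicates 1, 2 and 3. It passed the filter on low counts through its WT libraries, and 2 of the 3 KO libraries had no count. The edgeR log2 fold change of -2.52, with a standard error of 0.846 (adjusted p = 0.0432), is no bound, since it depends on the prior count. It was -1.94 without KO replicate 3 and -8.0 without KO replicate 2 (adjusted p = 0.0123), so 1 library decided its size. The call was lost without each WT replicate and without KO replicates 1 and 3 (adjusted p between 0.0678 and 0.141), and with DESeq2 (adjusted p = 0.111). Over all genes and libraries, 2579 entries equal 4 and only 620 equal 1, so how many fragments lie behind a small count is not known. Per kilobase of exon, Ebi3 was 138-fold above Il12a in WT. The other partners of these subunits were also near the limit, since Il27 (p28) was at most 0.136 CPM and Il12b (p40) at most 0.0772 CPM in any library.

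Of 8 genes of the IL-12 family and its receptors, 6 were tested. Of these, 1 was higher (12.0% of all genes) and 1 was lower (12.1%) in KO. Il6st (gp130), a signalling chain of the IL-35 and IL-27 receptors, was 1.12-fold higher (edgeR adjusted p = 0.00157). Il12rb1, a chain of the IL-12 and IL-23 receptors, fell from 68.6 ± 1.99 CPM to 59.0 ± 0.909 CPM (SD, n = 3, edgeR adjusted p = 0.000957). Il12rb2, which pairs with gp130 for IL-35, averaged 2.12 ± 0.228 CPM in WT against 2.46 ± 0.320 CPM in KO (SD, n = 3, edgeR adjusted p = 0.291).

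Of the pair of adenosine enzymes, Nt5e fell slightly and Entpd1 did not pass the test. Entpd1 encodes CD39, which removes phosphates from ATP and ADP, and lies on chromosome 19 of GRCm38 from 40612366 to 40741602 on the plus strand. It was 29.3, 29.9 and 30.9 CPM in WT replicates 1, 2 and 3 and 29.6, 28.5 and 29.5 CPM in KO replicates 1, 2 and 3. The groups overlapped, with a log2 fold change of -0.042 and a 95% interval from -0.13 to 0.047 (edgeR adjusted p = 0.566). Macrophages and B cells also carry CD39, and the sums of the B cell and myeloid markers were lower in KO, as given above. Within the myeloid list the markers did not move together. Lyz2 fell from 19.7 ± 1.78 CPM to 7.36 ± 0.848 CPM, whereas Csf1r and Adgre1, which mark macrophages, did not pass the test, at 8.80 ± 1.02 CPM and 1.64 ± 0.157 CPM in WT against 10.3 ± 0.596 CPM and 1.67 ± 0.108 CPM in KO (SD, n = 3). Their part in the level of Entpd1 was not tested.

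Nt5e encodes CD73, which turns AMP into adenosine, and lies on chromosome 9 from 88327197 to 88372092 on the plus strand. It was 200.0, 211.1 and 209.9 CPM in WT and 190.6, 193.2 and 195.5 CPM in KO. Every KO library was below every WT library, but the edgeR log2 fold change was only -0.10, with a standard error of 0.034 (adjusted p = 0.0451). The call was lost on leaving out WT replicate 2 (adjusted p = 0.189), WT replicate 3 (0.0841), or KO replicate 1, 2 or 3 (0.168, 0.148 and 0.0937), and with all genes with a count (0.0616). Relative to Foxp3, Nt5e counts overlapped, from 0.173 to 0.189 per Foxp3 count in WT and from 0.179 to 0.187 in KO.

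Of 14 further genes of the ATP and adenosine pathway, 4 were higher (12.0% of all genes) and 2 were lower (12.1%) in KO. Adora2a, the adenosine receptor of T cells, was 67.6, 60.4 and 61.6 CPM in WT and 82.6, 80.9 and 77.4 CPM in KO (log2 fold change 0.34, edgeR adjusted p = 0.000131). Adk, which removes adenosine inside the cell, fell by 22.7% (edgeR adjusted p = 0.000841). Cd38, an enzyme that consumes NAD, fell by 21.1% (edgeR adjusted p = 0.00472). Enpp1, which makes AMP from ATP, was 1.16-fold higher (edgeR adjusted p = 0.0173), and lost its call without WT replicate 2 and without KO replicate 3 (adjusted p up to 0.0902). Ada, which degrades adenosine, averaged 9.81 ± 0.360 CPM in WT against 9.51 ± 0.988 CPM in KO (SD, n = 3, edgeR adjusted p = 0.700). P2rx7, the ATP-gated channel that can kill Tregs, averaged 169.9 ± 7.06 CPM in WT against 158.8 ± 0.862 CPM in KO (SD, n = 3, edgeR adjusted p = 0.0712). P2rx7 passed the test without WT replicate 1 (adjusted p = 0.00368) and under 3 other settings, namely unscaled library sizes (0.0216), upper-quartile factors (0.0358) and a filter of CPM above 1 in 3 samples (0.0436).

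Areg, which was higher, and Gzmb, which was lower, were the members whose upstream sequence held a searched motif, and both sequences are shown for that reason. The sequences are from RefSeq on GRCm38.p6, run 5′ to 3′ on the strand of the gene and end at the base before the outermost annotated start. Capitals mark matches on either strand to TGACGTCA (the cAMP response element), to TGAGTCA or TGACTCA (the AP-1 element) or to TATAAA. The table matched 8 of the 10 members, and Il10 and Lrrc32 did not match.
Areg, chr5:91139349-91139598, plus strand: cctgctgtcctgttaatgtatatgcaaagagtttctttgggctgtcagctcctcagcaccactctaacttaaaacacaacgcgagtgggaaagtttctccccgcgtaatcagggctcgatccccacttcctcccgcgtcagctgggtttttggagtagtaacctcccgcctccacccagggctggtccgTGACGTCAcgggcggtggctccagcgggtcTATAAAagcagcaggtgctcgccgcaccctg
Gzmb, chr14:56262335-56262584, minus strand: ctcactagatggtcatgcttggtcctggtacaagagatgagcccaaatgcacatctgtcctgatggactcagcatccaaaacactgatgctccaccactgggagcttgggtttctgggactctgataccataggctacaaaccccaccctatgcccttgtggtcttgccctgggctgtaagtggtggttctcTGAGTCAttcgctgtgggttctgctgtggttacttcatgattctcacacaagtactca
In Areg the cAMP response element began 61 bases and the TATA element 31 bases before the start. In Gzmb the AP-1 element began 58 bases before the RefSeq start, which lies 74 bases upstream of the GENCODE start given for this gene, so that it began 132 bases before the latter. Of 32851 such windows of 250 bases, 1.55% held the cAMP response element, 4.46% an AP-1 element and 12.4% TATAAA. No other member that matched held any of these in its window, which for Fgl2 had only 219 bases. The Nt5e window and 1 window each of Il12a and Entpd1 lay downstream of the GENCODE start given for the gene. For Nt5e, the bases before that start were not searched. A match of letters is not evidence that a factor bound there.

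Areg lies on chromosome 5 of GRCm38 from 91139599 to 91148432 on the plus strand. Its RNA was 9.03, 7.87 and 8.24 CPM in WT replicates 1, 2 and 3 and 14.9, 15.2 and 14.9 CPM in KO replicates 1, 2 and 3. The KO libraries lay within a coefficient of variation of 1.23%, and all 3 were above all WT libraries. The log2 fold change, by edgeR, was 0.84 with a standard error of 0.066 (adjusted p = 1.06e-06), from 0.79 to 0.90 under 17 other settings. Basophils and mast cells also make amphiregulin, and their 4 markers summed to at most 0.379 CPM in WT and 0.280 CPM in KO. Only 2 of these markers had enough counts to be tested. The part of these cells in the level of Areg was not tested.

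Of 11 genes for other EGFR ligands, their release and the alarmin receptors that induce Areg, 10 were tested. Of these, 2 were higher (12.0% of all genes) and 2 were lower (12.1%) in KO. Both that were higher were weakly expressed ligands. Hbegf averaged 2.76 ± 0.154 CPM in WT against 3.74 ± 0.317 CPM in KO (SD, n = 3, edgeR adjusted p = 0.0136), and lost its call without WT replicate 2 and without KO replicates 1 and 3 (adjusted p up to 0.0607). Egf averaged 1.01 ± 0.309 CPM in WT against 1.71 ± 0.347 CPM in KO (SD, n = 3, edgeR adjusted p = 0.0167), and lost its call without WT replicates 1 and 2 and without KO replicate 3 (adjusted p up to 0.0838). Il1rl1 (ST2), the IL-33 receptor of tissue Tregs, fell from 27.2, 29.7 and 29.5 CPM to 21.0, 21.5 and 22.4 CPM (log2 fold change -0.41, edgeR adjusted p = 7.97e-05). Il18r1 fell by 7.31% (edgeR adjusted p = 0.036), and lost its call without WT replicate 2, without each KO replicate (adjusted p up to 0.159) and with all genes with a count (0.0548). Adam17, the protease that releases amphiregulin, averaged 85.9 ± 1.89 CPM in WT against 80.2 ± 1.87 CPM in KO (SD, n = 3, edgeR adjusted p = 0.0664), and passed without WT replicate 1 (adjusted p = 0.0215) and under the same 3 settings as P2rx7 (adjusted p between 0.0201 and 0.041). Egfr, the receptor, was at most 0.557 CPM in any library.

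Gzmb encodes granzyme B, a serine protease of cytotoxic granules, and lies on chromosome 14 of GRCm38 from 56258838 to 56262260 on the minus strand. Its RNA was 38.6, 38.3 and 40.8 CPM in WT replicates 1, 2 and 3 and 25.9, 27.8 and 25.7 CPM in KO replicates 1, 2 and 3. Every KO library was below every WT library. The log2 fold change, by edgeR, was -0.57 with a standard error of 0.048 (adjusted p = 2.06e-06), from -0.60 to -0.54 under 17 other settings. None of its 50-base transcript stretches was found in transcripts of another gene, other granzymes included. CD8 T and NK cells also make granzyme B. Their 5 markers summed to between 26.6 and 27.3 CPM in WT and between 23.3 and 25.2 CPM in KO. Of these markers 1, Eomes, fell and 4 did not pass the test. The part of these cells in the level of Gzmb was not tested.

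Of 12 further genes of granule killing, 2 were higher (12.0% of all genes) and 4 were lower (12.1%) in KO. The other granzymes called were lower as well. Gzma fell from 3.31 ± 0.143 CPM to 2.36 ± 0.223 CPM (SD, n = 3, edgeR adjusted p = 0.0068), and Gzmc from 2.43 ± 0.252 CPM to 1.74 ± 0.0747 CPM (SD, n = 3, edgeR adjusted p = 0.0146). Gzmc lost its call without WT replicate 2 and without KO replicates 1 and 3 (adjusted p up to 0.0636). Prf1, the pore-forming perforin, fell from 10.2 ± 0.249 CPM to 8.50 ± 0.758 CPM (SD, n = 3, edgeR adjusted p = 0.0192), and lost its call without WT replicate 2 and without KO replicates 2 and 3 (adjusted p up to 0.107). Srgn, the proteoglycan that stores granzymes in granules, went the other way, from 336, 350 and 362 CPM to 433, 421 and 419 CPM (log2 fold change 0.28, edgeR adjusted p = 6.33e-05).

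Fgl2, secreted by Tregs and by myeloid cells, lies on chromosome 5 of GRCm38 from 21372642 to 21378374 on the plus strand. Its RNA was 25.2, 26.4 and 24.9 CPM in WT replicates 1, 2 and 3 and 17.1, 15.8 and 17.5 CPM in KO replicates 1, 2 and 3. Every KO library was below every WT library. The log2 fold change, by edgeR, was -0.60 with a standard error of 0.055 (adjusted p = 3.73e-06), from -0.63 to -0.56 under 17 other settings. Fgl2 overlaps Ccdc146 on the other strand. Of the 7 myeloid markers, 4 fell and 3 did not pass the test, with sums of at most 44.5 CPM in WT and 27.0 CPM in KO, and their part in the decrease of Fgl2 was not tested.

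Of 3 receptors and inducers linked to Fgl2, 1 was lower (12.1% of all genes) and 2 did not pass the test. Tigit, the checkpoint receptor known to induce Fgl2 in Tregs, was 84.5, 78.6 and 71.3 CPM in WT and 83.1, 83.2 and 83.3 CPM in KO (edgeR adjusted p = 0.252), and without WT replicate 1 it was higher in KO (adjusted p = 0.0151). Fcgr2b, the inhibitory Fc receptor that binds Fgl2 on B and myeloid cells, fell from 1.35 ± 0.320 CPM to 0.401 ± 0.0983 CPM (SD, n = 3, edgeR adjusted p = 0.000214).

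**Figure D4:**
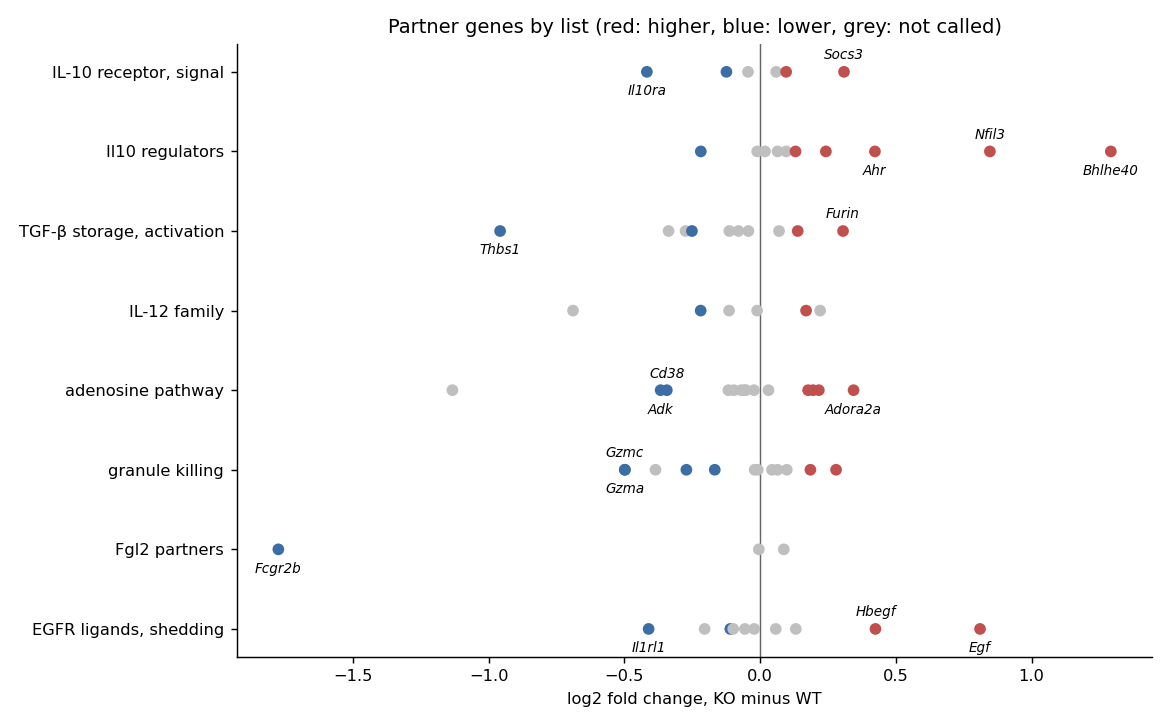
Log2 fold change (KO minus WT) of the 71 tested partner genes in 8 lists, 1 point a gene, red where higher, blue where lower and grey where not called, with names at an absolute value of at least 0.3. Of these genes 18 were higher (12.0% of all genes) and 15 were lower (12.1%), with members of both kinds in every list but that of Fgl2.

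Over all 8 lists, 18 of 71 tested partner genes were higher (12.0% of all genes) and 15 were lower (12.1%) in KO. Over all genes tested, 24.1% were called in either direction. The 18 higher calls became 11 without WT replicate 2 and 10 without KO replicate 3. Over all genes, the 4170 calls became 2740 and 2986 in the same fits. The median log2 fold change of the partner genes was -0.020.

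Divided by exon length, the members' levels within a group become comparable. In WT, Lrrc32 was highest at 87.5 ± 4.31 CPM per kilobase (SD, n = 3), followed by Tgfb1 at 64.4 ± 1.13, Gzmb at 27.3 ± 0.926 and Nt5e at 24.1 ± 0.712. Il10 at 15.2 ± 0.657 and Ebi3 at 14.9 ± 2.18 CPM per kilobase did not differ beyond their spread. Areg at 6.90 ± 0.488 and Fgl2 at 6.73 ± 0.201 CPM per kilobase did not either, and Entpd1 followed at 5.39 ± 0.145. Il12a was lowest at 0.108 ± 0.0250 CPM per kilobase. In KO, Il10 at 28.8 ± 0.947 CPM per kilobase was the third after Lrrc32 at 115.1 ± 2.08 and Tgfb1 at 64.8 ± 1.08. Nt5e at 22.4 ± 0.286 then stood above Gzmb at 18.4 ± 0.799 and Ebi3 at 17.2 ± 0.958, which lay within their spread of each other. Areg at 12.3 ± 0.151 CPM per kilobase was above Entpd1 at 5.23 ± 0.112, and Fgl2 at 4.44 ± 0.234 was below it. The lengths pool all annotated exons of a gene, so a gene read from a short transcript is placed too low.

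**Figure D5:**
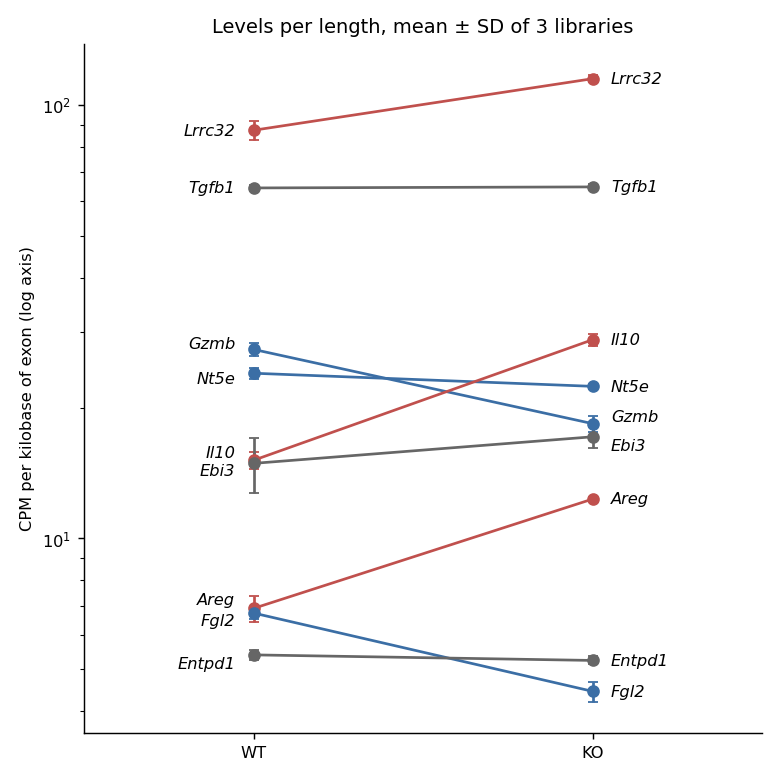
CPM per kilobase of exon (log axis) of 9 members in WT and KO, as the mean and SD of 3 libraries, red where higher, blue where lower and grey where not called. The line of Il10 crosses those of Nt5e and Gzmb, and the line of Fgl2 crosses that of Entpd1, while Lrrc32 and Tgfb1 stay at the top.

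Foxp3 RNA fell by 7.42% in KO (log2 fold change -0.11, edgeR adjusted p = 0.0163). The members were also read per Foxp3 count in the same library, a measure chosen after the values were seen. Il10 was between 0.0163 and 0.0182 counts per Foxp3 count in WT and between 0.0350 and 0.0374 in KO. Areg was between 0.00703 and 0.00782 in WT and between 0.0140 and 0.0145 in KO. Gzmb was between 0.0334 and 0.0359 in WT and between 0.0244 and 0.0265 in KO, and Fgl2 between 0.0218 and 0.0235 in WT and between 0.0151 and 0.0167 in KO. Lrrc32 was between 0.352 and 0.375 in WT and between 0.505 and 0.522 in KO. Tgfb1 and Ebi3, which overlapped in CPM, did not overlap on this measure. Foxp3, its denominator, was lower in every KO library, which by itself raises each KO ratio. The KO mean of Tgfb1 was 1.01-fold that of WT in CPM and 1.09-fold per Foxp3 count. Tgfb1 was between 0.284 and 0.288 in WT and between 0.307 and 0.313 in KO, and Ebi3 between 0.0133 and 0.0177 in WT and between 0.0181 and 0.0201 in KO. Entpd1, like Nt5e, still overlapped, from 0.0254 to 0.0273 in WT and from 0.0272 to 0.0282 in KO. The groups were thus apart for 7 of the 9 members other than Il12a (two-sided exact permutation test, p = 0.1 for each of the 7, which is the smallest possible), against 46.6% of all genes. Without any reference gene, WT libraries held between 1.23 and 1.34 Fgl2 counts per Il10 count and KO libraries between 0.431 and 0.458. Areg counts per Gzmb count went from between 0.202 and 0.234 to between 0.548 and 0.581. Each pair joined a member lower in every KO library with a member higher in every KO library. Their separation thus followed from the CPM values and adds no support.

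The genes whose z scores over the 6 libraries lay closest to those of Il10, among 11067 genes whose average log2 CPM reached 1, were Tnfsf8, Klf6, Isca1, Lpin1 and Mtmr1. Their distances were between 0.0587 and 0.0920, in units of z score. Z scores ignore the size of a change, and in 3332 of 17307 genes tested every KO library was above every WT library. Isca1, Lpin1 and Mtmr1 had log2 fold changes between 0.33 and 0.36, against 0.93 for Il10. Shared control with Il10 was not tested. Tnfsf8, which encodes the CD30 ligand, averaged 40.5 CPM in WT against 70.0 CPM in KO. Neighbours of Il12a are not given, because 2 of its 3 KO libraries had no count.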

How the data were processed

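Total RNA of 6 libraries of spleen CD4+CD25+ cells was sequenced by the authors. They deposited raw counts per gene symbol, not scaled between libraries, and the submitters' processing notes name HISAT2, DESeq2 and mm10. How these counts were made from the alignments is not given in the sources used here. Groups and replicate numbers were taken from the sample titles. Of 32285 rows, 40 repeat a symbol, and of these the row with more counts was used.

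Counts were tested in R 4.3.3 with edgeR 4.0.16 (TMM scaling, filterByExpr, robust quasi-likelihood F-test without the legacy option) over all 17307 genes kept, with Benjamini-Hochberg adjustment. The threshold was an adjusted p of 0.05. Standard errors came from the F statistic, and 95% intervals are 1.96 standard errors to each side. A prior count of 2 was added for log2 CPM values. Positions, exon lengths and shared 50-base stretches came from GENCODE vM21 on GRCm38, which is mm10.

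Named genes were the 10 members, Zfp335, a fixed list of direct partners, and up to 4 called genes with the largest change in each partner list. Gm16712, Ccdc146, Eomes, Xist, Lyz2, Csf1r, Adgre1, Tnfrsf18 and Cd3g were named after their values were seen. The members and lists were chosen with earlier results of these data known. Same-numbered libraries deviated from their group means with correlations between -0.0271 and 0.052, and were not treated as paired. Alternatives included DESeq2 1.42.0, limma-voom (limma 3.58.1), other scalings and filters, and leaving out each library. No sample was left out.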

Additional observations from a re-analysis of the deposited data

How the results depend on the processing

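The directions and calls of Il10, Areg, Lrrc32, Gzmb and Fgl2 held under all 17 other settings run. Members higher in KO numbered 3, and between 3 and 4 over the 6 fits with 1 library left out. Members lower in KO numbered 4, and between 2 and 3 across those fits, with 2 when WT replicate 2 or 3, or KO replicate 1 or 3, was left out. Members past the 1.5-fold cutoffs numbered 4, between 3 and 4 across those fits and between 3 and 5 under the other settings (5 with library size only, 3 with DESeq2, the legacy method, CPM above 1 in 3 samples and counts divided by 4). Members whose groups did not overlap numbered 7, and between 7 and 8. Partner genes higher in KO numbered 18, and between 10 and 19 across those fits, and partner genes lower in KO numbered 15, and between 10 and 17. Under the other settings partner genes higher numbered between 14, with library size only, and 18, and partner genes lower between 14 and 17. Tgfb1 changed sign with upper-quartile factors (-0.0065) and with library size only (-0.023), and ranged from -0.0058 to 0.021 across the fits without 1 library. Across the same fits Ada ranged from -0.13 to 0.018, Egfr from -0.18 to 0.31 and Prdm1 from -0.045 to 0.018, without a call. The cause was not tested. A fit with a replicate block left 3 members higher and 3 lower, since Il12a lost its call (adjusted p = 0.0682), and all other members kept theirs. Il12a was not tested with counts divided by 4 or with CPM above 1 in 3 samples, because too few counts were left. Of 36 named genes called, 25 kept their call and direction under every setting run for them. How many fragments lie behind a small count is unknown, and this limits weakly expressed genes such as Il12a.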
